A study of Mus musculus with 8 samples.

Results

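The integrin subunit and laminin chain genes of MC3T3-E1 cells, a mouse line of calvarial pre-osteoblasts, were described in 8 RNA sequencing libraries. Members were taken by symbol from the count table of the series, as Itga or Itgb followed by digits or by 1 letter, Itga2b, and Lama, Lamb or Lamc followed by 1 digit. This gave 36 of the 28901 genes in the table, 25 of integrins and 11 of laminins. A total of 29 had at least 20 counts summed over the 8 libraries and are described here, and 24 of these passed the filter on low counts and were tested. The other described genes, Itgal, Itgb2, Itgb7, Lama2 and Lama5, had 25 to 45 counts in all. The remaining members, Itgam, Itgax, Itgad, Itgb6, Lama1, Lama3 and Lamc3, had 1 to 13 counts in all. Itga4 has no row in the table used here.

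By title the libraries fall into 4 groups of 2: Brd and its partner control, and NM-Brdi and its partner NM-DMSO. The series describes BRD9 inhibition with 10 µM I-BRD9, a small molecule that blocks a chromatin reader protein, or DMSO, and osteogenic differentiation with 0.1 µM dexamethasone, 0.25 mM ascorbic acid and 10 mM of a glycerol phosphate. Which libraries had that medium, what Brd and control received and what NM means are not stated, so groups keep their titles. All come from 1 cell line, separate cultures within a group are not stated, and p-values thus reflect a spread between libraries that may be technical only.

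Integrins are receptors of 1 alpha and 1 beta subunit that bind matrix proteins or ligands on other cells and couple them to the actin cytoskeleton. The alpha subunit largely sets the ligand: alpha1, alpha2, alpha10 and alpha11 bind collagens, alpha3, alpha6 and alpha7 bind laminins, and alpha5, alpha8 and alphaV bind proteins with an RGD motif. Laminins are trimers of 1 alpha, 1 beta and 1 gamma chain and form the sheet of basement membranes. In osteoblasts, integrins with the beta1 subunit carry much of the adhesion to the collagen matrix of bone.

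Itga10 and Itga11 encode closely related collagen-binding subunits and had opposite fold changes in both pairs, although the Itga11 change in NM-Brdi was not called. Their promoters are shown for that reason. They are RefSeq promoters of build GRCm38.p6, from 250 bases before to 50 bases after the annotated start, both on the plus strand, at chr3:96645334-96645633 for Itga10 and chr9:62677605-62677904 for Itga11. Capitals mark matches to any of 5 motifs on either strand: TGTGGT (RUNX), CTTTGA (TCF/LEF), GGAATG (TEAD), TGANTCA (AP-1) and GGGCGG (GC box).
Itga10: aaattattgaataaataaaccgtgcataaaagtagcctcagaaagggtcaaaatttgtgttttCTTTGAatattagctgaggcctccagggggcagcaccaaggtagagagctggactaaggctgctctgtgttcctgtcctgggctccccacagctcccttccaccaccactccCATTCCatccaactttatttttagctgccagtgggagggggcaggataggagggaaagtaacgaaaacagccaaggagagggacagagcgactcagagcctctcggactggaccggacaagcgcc
Itga11: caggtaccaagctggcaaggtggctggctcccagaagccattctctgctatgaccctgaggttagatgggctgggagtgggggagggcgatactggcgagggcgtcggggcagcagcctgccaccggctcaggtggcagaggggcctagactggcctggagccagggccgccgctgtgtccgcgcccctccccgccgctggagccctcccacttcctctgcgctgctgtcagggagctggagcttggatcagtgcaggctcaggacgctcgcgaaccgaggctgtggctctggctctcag
The Itga10 window held 1 TCF/LEF match, with its first base at -187 from the start, and 1 TEAD match at -75, read as CATTCC on the strand shown. The Itga11 window held none of the 5 motifs. In 300-base promoters of the whole table, 16.0% held the TCF/LEF letters, 14.7% the TEAD letters, 16.8% the RUNX letters, 7.81% the AP-1 letters and 35.7% the GC box. Of 22 members with a promoter in the table, 5 held the TCF/LEF letters, 3 the TEAD letters, 2 the RUNX letters, 3 the AP-1 letters and 10 the GC box. These members had 25 promoters, and a member was counted when any of its promoters matched. The percentages are per promoter, so the member counts are not on the same scale. A match describes these letters and is no evidence of binding.

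The libraries held 16918182 to 24555028 counts. CPM, the usual unit of depth-scaled counts and here computed with TMM factors, corresponded to 16.4 to 26.1 counts per unit. A count of 0 allows up to 3 counts, or 0.115 to 0.183 CPM in a library. The 8 osteoblast markers summed to 9798 to 10050 CPM in Brd, 11220 to 11950 in control, 6333 to 6595 in NM-Brdi and 8028 to 9752 in NM-DMSO, and all 8 were above 0.5 CPM in at least 1 library. The NM-DMSO libraries stood apart from each other: 2079 of 17038 tested genes differed over 2-fold between them, against 388 to 597 in the other groups. All groups share 1 estimate of the spread per gene, which NM-DMSO widens. Between groups of 2 libraries, values that do not overlap are weak evidence of a difference. The share of all genes without overlap was not taken.

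Among the tested members, edgeR's quasi-likelihood test (adjusted p under 0.05) called 3 of 24 between Brd and control, Itga6 and Itga11 higher and Itga10 lower. This is 12.5% of the members, against 6.58% of all tested genes. Between NM-Brdi and NM-DMSO it called 1 of 24, Itga10, which was lower, against 1.87% of all genes. Between control and NM-DMSO it called 8 of 24, or 33.3%, against 23.4% of all genes. The difference of the differences, Brd against control minus NM-Brdi against NM-DMSO, called 0 of 24 with edgeR, against 0.0411% of all genes. In that comparison 6 members had an unadjusted edgeR p under 0.05, against 1580 of all 17038 tested genes. DESeq2 called 1 member there, against 299 of all genes. The median log2 fold change of the 24 members was 0.08 in Brd, 0.21 in NM-Brdi and 0.26 in control, each against its own comparison group, with medians of 0.00, -0.00 and -0.02 over all genes. Brd against control and control against NM-DMSO share the control libraries and are given side by side. Fits of fewer libraries also changed how many of all genes were called, so a call lost there need not be particular to a member. The pair alone gave 0 called genes in NM-Brdi against NM-DMSO and 371 in control against NM-DMSO. The 8-library fit called 318 and 3988. Without a Brd or a control library, fewer of all genes were called in Brd against control and in control against NM-DMSO.

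**Figure D1:**
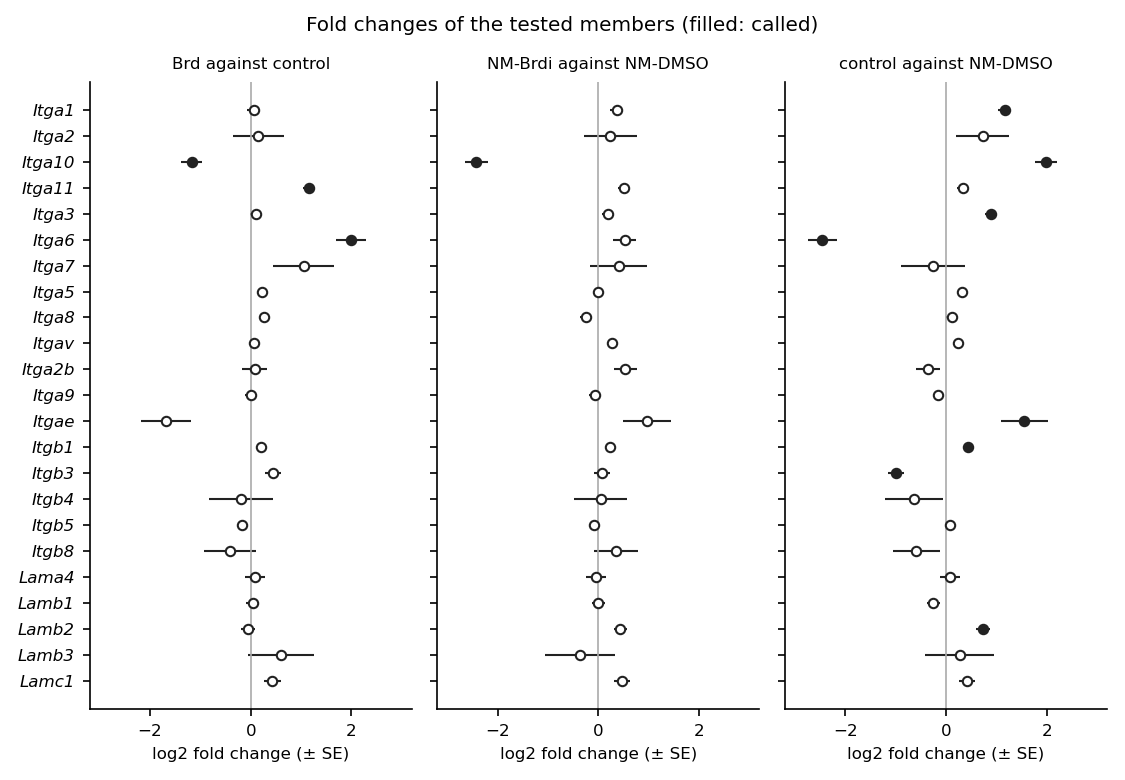
Log2 fold change (x axis) of 23 of the 24 tested members (rows, in order of role) in 3 comparisons. Points are fitted values, bars are ± 1 standard error, and filled points were called at an adjusted p under 0.05. Itga10, Itga11 and Itga6 are filled in Brd against control, Itga10 alone in NM-Brdi against NM-DMSO, and 8 members in control against NM-DMSO.

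Of the 4 collagen-binding alpha subunits, Itga10 and Itga11 were called between Brd and control. Itga10 (chromosome 3, 96645584 to 96664519, GRCm38), whose product binds collagens and is best known from cartilage, was lower in both pairs. It had 68.6 and 70.5 CPM in Brd, against 151.5 and 162.2 CPM in control. It had 5.48 and 9.37 CPM in NM-Brdi, against 43.6 and 35.6 CPM in NM-DMSO. Neither pair of groups overlapped, and both control libraries were the highest of the 8. Itga10 was 2.25-fold lower in Brd (log2 fold change -1.17, SE 0.21, adjusted p = 0.0193 by edgeR) and 5.34-fold lower in NM-Brdi (fitted log2 ratio -2.42, SE 0.23, adjusted p = 0.00763). The difference of the differences was 1.24 (SE 0.31) and did not pass the edgeR test over all genes (adjusted p = 0.203). DESeq2 (adjusted p = 0.0132) and voom with quality weights (adjusted p = 0.0426) did call it. Itga10 was also 3.96-fold higher in control than in NM-DMSO (log2 fold change 1.99, SE 0.22, adjusted p = 0.00137). Fewer cells with this transcript and less of it per cell cannot be told apart in bulk RNA. The calls in NM-Brdi and in control against NM-DMSO held whichever library was left out (largest adjusted p = 0.0439 and 0.019). With the NM-Brdi and NM-DMSO libraries fitted alone, the NM-Brdi call was lost (log2 fold change -2.40, adjusted p = 0.256 by edgeR). That fit called 0 of all genes. The call in Brd was lost without any 1 of the 4 Brd or control libraries, in fits that called fewer of all genes. The log2 fold change in Brd stayed between -1.22 and -1.12 over the fits without 1 library.

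Reads in 1739 of the 5186 exon bases of Itga10 could also be assigned to Gm42957, which had 123 counts in all against 10080 for Itga10. Of 6 chondrocyte markers 5 were in the table. Their summed level was 271.5 to 283.2 CPM in Brd against 325.7 to 335.9 CPM in control, and 219.8 to 220.6 CPM in NM-Brdi against 201.2 to 251.2 CPM in NM-DMSO. Acan and Matn1 were under 0.5 CPM in every library. Of 3 tested with edgeR, Matn3 was called lower in Brd, none was called in NM-Brdi, and Col2a1 and Matn3 were called higher in control than in NM-DMSO. The part of this list in the Itga10 result was not tested.

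Itga11 (chromosome 9, 62677826 to 62783982), whose product also binds collagens, was higher in Brd. It had 254.0 and 246.1 CPM in Brd, against 112.6 and 111.5 CPM in control. This was a 2.23-fold increase (log2 fold change 1.16, SE 0.12, adjusted p = 0.00283 by edgeR), and the Brd libraries were the highest of the 8. In NM-Brdi it had 131.6 and 120.5 CPM, against 80.05 and 96.4 CPM in NM-DMSO. These groups did not overlap either, but the log2 fold change of 0.51 (SE 0.11) missed the threshold (adjusted p = 0.0739 by edgeR, 0.0117 by DESeq2). The difference of the differences was 0.64 (SE 0.16, adjusted p = 0.213). The Brd call was lost without Brd replicate 1 or either control library, at adjusted p values of 0.0586 to 0.0612.

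**Figure D2:**
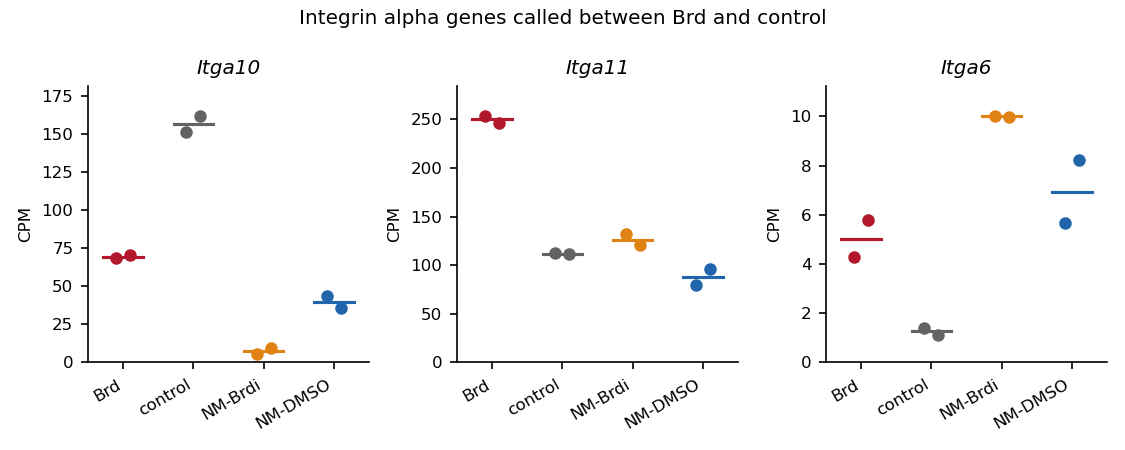
CPM (y axis, from 0) of Itga10, Itga11 and Itga6 in the 4 groups (x axis). Points are single libraries and lines are group means. Itga10 is lower in Brd than in control and in NM-Brdi than in NM-DMSO, Itga11 is highest in Brd, and Itga6 is lowest in control.

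The ratio of these subunits inside a library does not depend on how libraries are scaled. Per kilobase of exon, the Itga11 level was 3.74 and 3.53 times the Itga10 level in Brd, against 0.751 and 0.695 times in control. It was 24.3 and 13.0 times in NM-Brdi, against 1.85 and 2.73 times in NM-DMSO. As counted, Itga10 therefore had the larger level in control and Itga11 in the other groups. How reads in the 1739 of 5186 exon bases that Itga10 shares with Gm42957 were treated is not given. The Itga10 levels, ratios and shares here may thus be too low or too high for that reason. As a share of the summed level of Itga1, Itga2, Itga10 and Itga11, Itga10 made up 19.7% and 20.4% in Brd, against 52.4% and 54.3% in control. It made up 3.61% and 6.44% in NM-Brdi, against 32.6% and 24.6% in NM-DMSO. The summed level itself was 67.3 and 66.6 CPM per kilobase in Brd, against 55.8 and 57.6 in control, and 29.3 and 28.1 in NM-Brdi, against 25.8 and 27.99 in NM-DMSO. These ratios and shares were formed after the values were seen and carry no test.

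**Figure D3:**
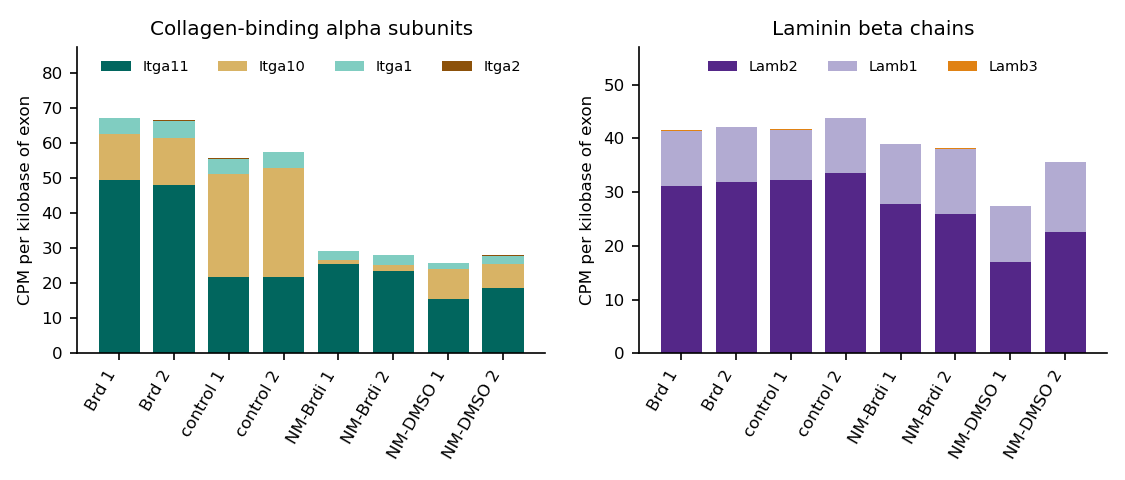
Level per library (x axis) in CPM per kilobase of exon (y axis, from 0), stacked over the collagen-binding alpha subunits (left) and the laminin beta chains (right). Itga10 makes up 52.4% and 54.3% of the left bar in control and 3.61% and 6.44% in NM-Brdi, while Lamb2 is the larger part of every bar on the right.

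Itga1 (chromosome 13, 114953096 to 115101964), a receptor subunit that prefers basement membrane collagen, had 81.8 and 91.4 CPM in Brd, against 83.2 and 82.8 CPM in control, and these groups overlapped. It had 45.7 and 49.6 CPM in NM-Brdi, against 32.8 and 41.0 CPM in NM-DMSO (log2 fold change 0.37, adjusted p = 0.179). It was 2.25-fold higher in control than in NM-DMSO (log2 fold change 1.17, SE 0.13, adjusted p = 0.00159 by edgeR), and this call held whichever library was left out. Itga2, the fourth subunit of this class, had 142 counts in all and was not called.

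Of the laminin-binding alpha subunits, Itga6 (chromosome 2, 71745616 to 71858416) alone was called between Brd and control, and had a low level. It had 4.27 and 5.81 CPM in Brd, against 1.39 and 1.13 CPM in control, from 171 counts in Brd and 46 in control. It was 3.97-fold higher in Brd (log2 fold change 1.99, SE 0.29, adjusted p = 0.00937 by edgeR). In NM-Brdi it had 10.0 and 9.97 CPM, against 5.66 and 8.24 CPM in NM-DMSO, and this log2 difference of 0.52 (SE 0.24) was not called (adjusted p = 0.247). Control was the lowest of the 4 groups, 5.48-fold below NM-DMSO (log2 fold change -2.45, SE 0.28, adjusted p = 0.00179), and that call held whichever library was left out. The call in Brd was lost without any 1 Brd or control library (adjusted p = 0.0612 to 0.114), with log2 fold changes of 1.75 to 2.19 over the fits without 1 library. The difference of the differences was 1.47 (SE 0.38, adjusted p = 0.221). Itga6 shares 326 nt with Gm29397, which had 47 counts in all against 1029.

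Itga3 (chromosome 11, 95044474 to 95076801), the laminin-binding subunit with the highest level here, had 122.8 and 126.9 CPM in Brd, against 120.6 and 111.4 CPM in control. It had 77.6 and 65.4 CPM in NM-Brdi, against 60.9 and 64.5 CPM in NM-DMSO. The groups of each pair did not overlap, but neither difference was called (log2 fold changes 0.11 and 0.19). Itga3 was 1.85-fold higher in control than in NM-DMSO (adjusted p = 0.00278 by edgeR), a call kept in every fit without 1 library but lost with the 4 control and NM-DMSO libraries alone (adjusted p = 0.0532). Of the summed level per kilobase of Itga3, Itga6 and Itga7, Itga6 made up 2.15% and 2.80% in Brd, against 0.721% and 0.638% in control, and 7.52% and 8.77% in NM-Brdi, against 5.52% and 7.45% in NM-DMSO. With the longest transcript as its length, the mean share of Itga6 was 4.31% in Brd, against 1.20% in control, and 13.6% in NM-Brdi, against 11.0% in NM-DMSO. Itga7, the muscle laminin receptor subunit, had 85 counts in all and was not called.

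The RGD-binding subunits differed less. Itgav, the alpha subunit of the vitronectin receptors, had the highest mean level per kilobase of any alpha subunit over the 8 libraries. Per kilobase of exon Itga11 was higher in both Brd libraries, but that order depends on the length used. The longest transcript of Itgav has 7054 nt against 10744 exon bases, and that of Itga11 has 4969 nt against 5131. Itgav had 388.4 and 385.6 CPM in Brd, against 376.4 and 360.3 CPM in control, and 390.2 and 355.4 CPM in NM-Brdi, against 313.2 and 307.7 CPM in NM-DMSO. Its log2 fold changes were 0.07 in Brd and 0.26 in NM-Brdi, neither called. Itga5, the fibronectin receptor subunit, had 106.4 and 100.8 CPM in Brd, against 90.001 and 86.5 CPM in control, and 72.9 and 67.7 CPM in NM-Brdi, against 73.9 and 67.8 CPM in NM-DMSO. Itga8, whose product binds nephronectin, had 88.2 and 88.6 CPM in Brd, against 73.2 and 73.2 CPM in control, and 54.4 and 59.8 CPM in NM-Brdi, against 62.0 and 73.5 CPM in NM-DMSO. The Itga8 difference had opposite signs in the pairs (0.27 in Brd and -0.25 in NM-Brdi), with a difference of the differences of 0.52 (SE 0.16, adjusted p = 0.321). In the fit of the Brd and control libraries alone, Itga5 and Itga8 were among 10 of 24 members called (41.7%, near the 40.0% of all genes that fit called).

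Itga2b, known as the platelet subunit alphaIIb, was present at 3.497 to 8.81 CPM and was not called. Of 5 platelet and megakaryocyte markers 2 had a row, both under 0.5 CPM in every library. Itga9, which pairs with beta1, was at 27.9 to 32.7 CPM in all libraries, with log2 fold changes between -0.15 and -0.00 in the 3 pairwise comparisons. Its difference of the differences was 0.07 (SE 0.15).

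The leukocyte alpha subunits were near the limit of detection. Itgam, Itgax and Itgad had 1 to 5 counts in all and Itgal had 27. Itgae, which pairs with beta7, had 8 counts in Brd and 28 in control (log2 fold change -1.68, SE 0.50, adjusted p = 0.0994), and 26 in NM-Brdi and 11 in NM-DMSO. It was called higher in control than in NM-DMSO (adjusted p = 0.0496 by edgeR), but in none of the 8 fits without 1 library (adjusted p up to 0.232) and not by DESeq2 (0.152). Itgb2, the beta subunit of most leukocyte integrins, had 25 counts in all, and Itgb7 had 45. Of 8 leukocyte markers 7 had a row. Their sum was 13.7 to 14.5 CPM in Brd against 24.8 to 27.1 CPM in control, and 14.4 to 15.0 CPM in NM-Brdi against 18.3 to 26.5 CPM in NM-DMSO. Ptprc, Adgre1 and Spi1 were under 0.5 CPM in every library. Of the 3 tested, Lyz2 was called lower in Brd. The part of this list in the Itgae counts was not tested.

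Among the beta subunits, Itgb1 (chromosome 8, 128685654 to 128733200), the partner of all the collagen-binding and most laminin-binding alpha subunits, had the highest level of any member. It had 1125 and 1125 CPM in Brd, against 962.5 and 982.9 CPM in control, and 851.6 and 827.2 CPM in NM-Brdi, against 711.4 and 722.6 CPM in NM-DMSO. Neither pair of groups overlapped. The log2 fold changes were 0.21 (SE 0.09, adjusted p = 0.23) and 0.23 (SE 0.09, adjusted p = 0.197), neither called by edgeR. Itgb1 was 1.36-fold higher in control than in NM-DMSO (adjusted p = 0.0159), a call lost without a Brd or a control library (adjusted p up to 0.138) and with the 4 libraries of the pair alone (0.157). It made up 80.2% and 80.1% of the summed beta level per kilobase in Brd, against 75.9% and 75.8% in control, and 74.7% and 74.3% in NM-Brdi, against 68.8% and 72.0% in NM-DMSO.

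Itgb5, which pairs with alphaV, had the next highest level, at 230.9 and 232.6 CPM in Brd, against 259.2 and 263.5 CPM in control, and 235.4 and 232.3 CPM in NM-Brdi, against 265.4 and 229.2 CPM in NM-DMSO. It was not called in any comparison of the 8-library fit, and its values are uncertain because 343 nt of it match Gm38317, which had 7702 counts. Itgb3 (chromosome 11, 104608000 to 104670476), the other main partner of alphaV and the beta subunit of the osteoclast vitronectin receptor, had 15.4 and 15.9 CPM in Brd, against 9.82 and 13.3 CPM in control (log2 fold change 0.44, adjusted p = 0.173). It had 22.9 and 25.0 CPM in NM-Brdi, against 22.4 and 23.3 CPM in NM-DMSO, and these groups overlapped. Itgb3 was 1.98-fold lower in control than in NM-DMSO (adjusted p = 0.00786), with a call lost without control replicate 1 (adjusted p = 0.0749) and with the pair alone (0.103). Itgb4 and Itgb8 had 117 and 401 counts in all and were not called, and Itgb6 had 13.

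**Figure D4:**
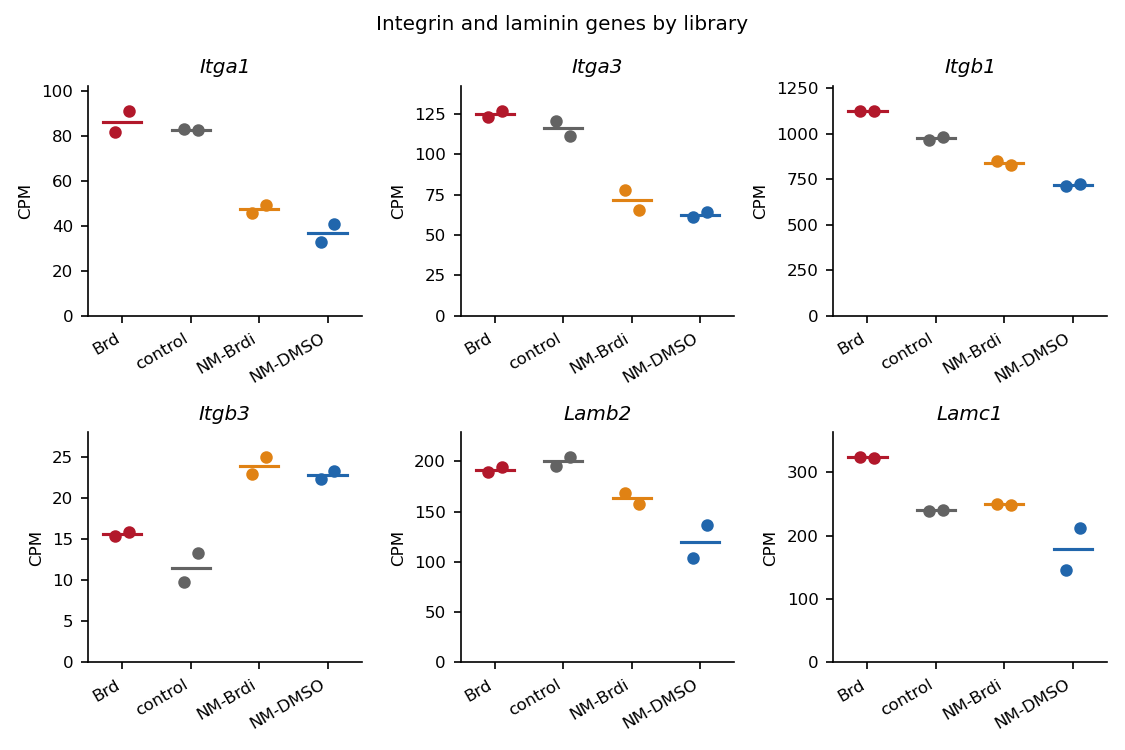
CPM (y axis, from 0) of Itga1, Itga3, Itgb1, Itgb3, Lamb2 and Lamc1 in the 4 groups (x axis). Points are single libraries and lines are group means. Itga1, Itga3 and Itgb1 are higher in Brd and control than in the groups with the prefix NM, Itgb3 is lower there, and the Lamb2 and Lamc1 levels of the NM-DMSO libraries lie far apart.

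Of the laminin genes, those of 1 alpha chain, 2 beta chains and 1 gamma chain had substantial counts. Lama4, the alpha chain of vascular and mesenchymal laminins, made up 99.4% to 99.9% of the alpha chain level per kilobase, while Lama1, Lama2, Lama3 and Lama5 had 1 to 33 counts in all. Lama4 had 132.1 and 137.0 CPM in Brd, against 124.2 and 130.3 CPM in control, and these groups did not overlap (log2 fold change 0.08, adjusted p = 0.908). It had 109.5 and 122.8 CPM in NM-Brdi, against 91.9 and 147.3 CPM in NM-DMSO, where the NM-Brdi libraries lay between those of NM-DMSO. It was not called, and its sign in NM-Brdi changed without NM-Brdi replicate 1 or NM-DMSO replicate 2 (log2 fold change -0.34 to 0.34 over the fits without 1 library).

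Lamc1, the gamma chain of most laminins, had 324.0 and 323.0 CPM in Brd, against 238.7 and 241.2 CPM in control. The log2 fold change was 0.43 (SE 0.16) and missed the threshold in the 8-library fit (adjusted p = 0.18 by edgeR). In NM-Brdi it had 250.1 and 248.7 CPM, against 146.2 and 212.6 CPM in NM-DMSO (log2 fold change 0.48, SE 0.16, adjusted p = 0.168). The 2 NM-DMSO libraries were the farthest apart. When Brd and control were fitted alone, Lamc1 was called higher in Brd (log2 fold change 0.43, adjusted p = 1.55e-12). That fit called 10 of 24 members, 7 higher and 3 lower, again near the share of all genes. Besides Itga6, Itga10 and Itga11 these were Lamc1, Itgb1, Itgb3, Itga5 and Itga8, which were higher in Brd, and Itgae and Itgb5, which were lower.

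Lamb2 (chromosome 9, 108479736 to 108490530), the beta2 chain known from neuromuscular and kidney basement membranes, had 189.8 and 194.2 CPM in Brd, against 195.7 and 204.3 CPM in control. It had 168.9 and 157.5 CPM in NM-Brdi, against 103.6 and 136.9 CPM in NM-DMSO (log2 fold change 0.44, SE 0.14, adjusted p = 0.151). It was 1.66-fold higher in control than in NM-DMSO (adjusted p = 0.013 by edgeR), a call lost without either control library (adjusted p up to 0.109) and with the pair alone (0.129). Lamb1 had 100.1 and 100.1 CPM in Brd, against 93.3 and 100.9 CPM in control, and 110.0 and 120.8 CPM in NM-Brdi, against 102.2 and 129.0 CPM in NM-DMSO. It was not called. The Lamb1 level per kilobase was 0.324 and 0.316 times that of Lamb2 in Brd, against 0.292 and 0.303 times in control, and 0.400 and 0.470 times in NM-Brdi, against 0.605 and 0.578 times in NM-DMSO. The ratios of NM-Brdi and NM-DMSO did not overlap, and no test was made. These ratios depend on the length used: with the longest transcript, Lamb1 made up 33.5% of the beta chain level in Brd, against 32.0% in control, and 40.7% in NM-Brdi, against 48.3% in NM-DMSO, while Lamb2 made up 66.1% in Brd, against 67.8% in control, and 59.1% in NM-Brdi, against 51.5% in NM-DMSO. In NM-DMSO replicate 1 all 4 of these laminin genes were lower than in replicate 2. Lamb3, a chain of epithelial laminins, and Lamc3 had 85 and 7 counts in all. Of 6 epithelial markers, Epcam, Cdh1, Krt8, Krt18 and Krt14 were under 0.5 CPM in every library, but Krt5 was not. The 6 summed to 0.774 to 0.874 CPM in control and to less in the other groups.

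**Figure D5:**
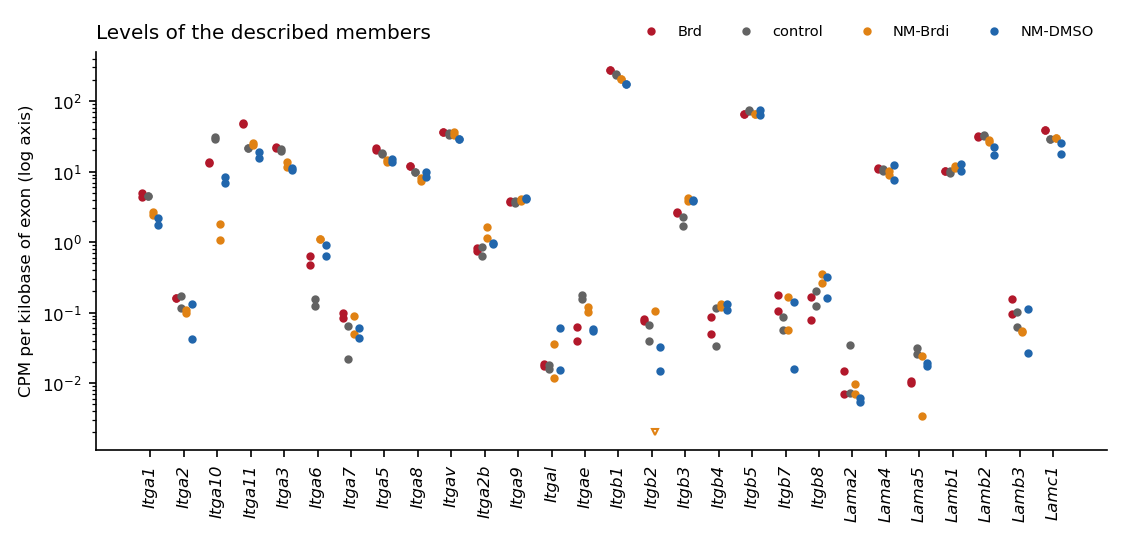
Level in CPM per kilobase of exon (y axis, log axis) of 28 of the 29 described members (x axis, in order of role). Each point is 1 library, coloured by group, and the open triangle is a library with 0 counts. Itgb1 is the highest, Itga6 is lowest in control, and Itga10 spans the widest range of the members whose levels are given by library.

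The genes that work with these receptors were read from 4 lists. Beside every count in these lists, the share of all tested genes called was 6.58% in Brd, 1.87% in NM-Brdi and 23.4% between control and NM-DMSO. Of 29 integrin adhesome genes, which link integrins to actin, 5 were called higher and 1 lower in Brd (median log2 fold change 0.10, against 0.00 over all genes). Zyx (0.79), Actn1 (0.58) and Pxn (0.69), encoding zyxin, alpha-actinin and paxillin, were among the higher. Tns1, which encodes a tensin that binds beta subunit tails, was lower, with 423.6 and 475.3 CPM in Brd, against 861.5 and 834.7 CPM in control. In NM-Brdi 2 were higher and 1 lower (median 0.09, against -0.00 over all genes). Parvb (1.01) and Pxn (0.73) were higher, and Tns1 was lower, with 18.0 and 24.1 CPM in NM-Brdi, against 36.4 and 55.3 CPM in NM-DMSO. Between control and NM-DMSO 10 were higher and 0 lower in the same edgeR fit (median 0.32, against -0.02 over all genes), with Tns1 at 4.21 on the log2 scale, Parvb at 1.49 and Flna, encoding filamin A, at 0.93.

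Of 13 tested basement membrane partners of laminin, 3 were called higher and 0 lower in Brd by edgeR (median 0.09). They were Col4a1 (0.83) and Col4a2 (0.59), the main collagen IV chains, and Agrn (0.60), which encodes agrin. In NM-Brdi 1 was lower and 0 higher (median 0.28), Col15a1 (-1.36, with 2.72 and 3.73 CPM in NM-Brdi, against 7.84 and 8.69 CPM in NM-DMSO). Between control and NM-DMSO 6 were higher and 1 lower (median 0.41), with Nid1 (2.10), the nidogen that bridges laminin and collagen IV, Col18a1 (1.43) and Col4a5 (0.56) higher and Col15a1 (-1.57) lower. Of 12 tested laminin receptors other than integrins and their co-receptors, edgeR called 0 in Brd and 0 in NM-Brdi (medians -0.07 and -0.06). Between control and NM-DMSO Sspn (0.61) was higher and Cd9 (-0.96) and Rpsa (-0.88) were lower. Cd9 and Rpsa had 222.0 and 84.1 CPM in NM-DMSO replicate 1 and 132.3 and 47.5 CPM in replicate 2.

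Of 18 tested integrin ligands other than laminins, 4 were called higher and 5 lower in Brd (median -0.03). Spp1 and Ibsp are also on the osteoblast marker list, of which 5 of 8 were called lower in Brd and 6 of 8 in NM-Brdi. The RGD proteins of bone Spp1 (-1.95) and Ibsp (-1.98) and Edil3 (-0.81) were the lower ones with the smallest p, and Ccn2 (3.22), Fbn1 (1.81) and Ccn1 (0.83) were higher. In NM-Brdi 4 were lower, among them Ibsp (-5.03), Postn (-0.80) and Npnt (-1.04), the ligand of alpha8, and Ccn1 (0.71) was higher (median -0.13). Between control and NM-DMSO 8 were higher and 1 lower (median 0.23), with Thbs1 (1.91), Ibsp (3.70) and Ccn1 (1.24) higher and Vcam1 (-0.37) lower. In the difference of the differences, Ccn2 (3.12) was the 1 gene called in the 4 lists.

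The remaining marker lists hold genes named for other cell types. Their levels in libraries of 1 cell line do not by themselves show that such cells were present. Of 4 endothelial markers in the table all were under 0.5 CPM in every library. Smooth muscle and pericyte markers summed to 1360 to 1402 CPM in Brd against 885.5 to 925.5 CPM in control, and 802.3 to 840.1 CPM in NM-Brdi against 834.1 to 1216 CPM in NM-DMSO. Of 4 tested, edgeR called 0 in each of the 4 comparisons, and Myh11 and Rgs5 were under 0.5 CPM in every library. Schwann cell markers summed to 17.5 to 18.1 CPM in Brd against 47.9 to 49.2 CPM in control, and 15.8 to 21.3 CPM in NM-Brdi against 36.2 to 57.6 CPM in NM-DMSO, with S100b called lower in both pairs and Sox10 under 0.5 CPM throughout. Of 5 skeletal muscle markers 3 were in the table, and Myh3 and Ckm were under 0.5 CPM in every library. Their sum, 16.0 to 17.0 CPM in Brd and 8.88 to 10.6 CPM elsewhere, thus came mainly from Acta1. Acta1, the 1 tested, was called higher in Brd. The part of these lists in the integrin results was not tested.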

How the data were processed

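RNA was measured in 8 libraries of MC3T3-E1 cells. The authors deposited raw read counts per gene. Tools named in the submitters' processing notes are featureCounts 2.0.3, STAR 2.7.10a, Trimmomatic 0.39 and FastQC 0.11.9, with GRCm38 and GRCh38 as builds. Annotation, strand setting and handling of multi-mapping reads: not given in the sources used here. Groups and replicate numbers came from the titles.

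Counts of all 28901 genes were filtered with filterByExpr, which left 17038. After TMM scaling, edgeR 4.0.16 under R 4.3.3 fitted all 8 libraries together by quasi-likelihood (glmQLFit, glmQLFTest), with 1 term per group. P-values were adjusted over all tested genes (Benjamini-Hochberg), and a gene was called under 0.05. Standard errors came from the F statistic. The edgeR fit was also run on simulated counts with known fold changes and the same spread per gene in all groups. That simulation leaves out the wider spread of NM-DMSO, and its outcome is not given here. Alternatives were DESeq2 1.42.0, limma 3.58.1 voom with quality weights, RLE factors, no filter, single pairs, a replicate block and leaving out each library.

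Positions and exon lengths are those of GENCODE M21 on GRCm38, not stated to be the annotation used for counting. Levels per kilobase divide CPM by the union of annotated exons. Near-copies were searched with BLAST+ 2.17.0 (longest transcript against every other gene's transcripts), and matches of at least 200 nt at 95% identity were kept. The members and lists were chosen with earlier results of these data known. Members called in any comparison or averaging at least 50 CPM are given by library, and other genes come from the lists, up to 3 called in each direction by smallest p. Counts over the members and marker lists include genes that are not reported here by name.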

Additional observations from a re-analysis of the deposited data

How the results depend on the processing

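Counts of calls changed with the libraries and tests used. Members called numbered 0 to 9 in Brd against control, 1 to 13 in NM-Brdi against NM-DMSO, 0 to 11 in the difference of the differences and 4 to 15 in control against NM-DMSO over the 8 fits without 1 library, with 3, 1, 0 and 8 in the 8-library fit. All genes called ranged from 36 to 5539, 8 to 9577, 0 to 7458 and 556 to 11265, with 1121, 318, 7 and 3988 in the 8-library fit. The high ends came from fits without an NM-DMSO library, which take no spread from that group: without replicate 1 and 2, the members called were 9 and 9, 8 and 13, 6 and 11, and 15 and 14. With 1 library left in a group, that library is assumed to vary like the others. The 4 libraries of a pair alone gave 10 members and 6413 genes in Brd against control, 0 and 0 in NM-Brdi against NM-DMSO, and 3 and 371 in control against NM-DMSO. DESeq2 called 2 members and 928 genes in NM-Brdi against NM-DMSO and 1 member and 299 genes in the difference. Without a filter on low counts 1848 genes were called in Brd against control, 4 members and 2453 genes in NM-Brdi against NM-DMSO, 2 members and 608 genes in the difference and 6274 genes in control against NM-DMSO. Voom with quality weights called 10 members and 5876 genes in Brd against control, 144 genes in NM-Brdi against NM-DMSO, 1 member and 154 genes in the difference and 2597 genes in control against NM-DMSO. The cause was not tested.

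Signs changed for some members, each in a comparison where the 8-library fit did not call it. In Brd against control, leaving out 1 library gave log2 fold changes of -0.020 to 0.14 for Itga1 and -0.012 to 0.10 for Lamb1. In NM-Brdi against NM-DMSO it ran from -0.070 to 0.060 for Itga5, -0.18 to 0.036 for Itgb5, -0.34 to 0.34 for Lama4 and -0.15 to 0.18 for Lamb1. Lamb1 (-0.003 in the 8-library fit) was 0.00099 with RLE factors, 0.00091 with DESeq2, 0.0054 without a filter, 0.0023 with the replicate block and 0.012 in the pair alone, where Itga5 was 0.0062. In the difference it ran from -0.20 to 0.046 for Itga3, -0.039 to 0.0045 for Itgb1, -0.22 to 0.0091 for Itgb5, -0.26 to 0.41 for Lama4, -0.13 to 0.19 for Lamb1 and -0.34 to 0.19 for Lamc1. In control against NM-DMSO it ran from -0.0051 to 0.24 for Itga8, -0.022 to 0.19 for Itgb5 and -0.21 to 0.47 for Lama4.

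The replicate numbers share only a number: deviations of same-numbered libraries correlated at -0.003 to 0.152 between groups. With the replicate number as a block, 3, 1, 0 and 7 members and 970, 188, 5 and 3753 genes were called. With the longest transcript as length, an alternative chosen after seeing the data, Itga10 made up 19.1% of the collagen-binding level in Brd and 50.7% in control, so levels between genes are approximate.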
